A study of Papio anubis with 18 samples.

Results

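Late-passage libraries of olive baboon (Papio anubis) pluripotent stem cells were compared with early-passage libraries of the same line. The number after the letter p in each sample description was read as the passage number, which the labels do not define. Libraries at p40 or higher were taken as late and libraries at p28 or lower as early. The comparison held 9 of the 12 libraries of the series, 4 late and 5 early, defined by line and passage. ESC line B15, derived from an embryo, gave early libraries at p21 and p28 and a late library at p43. The iPSC lines come from somatic cells that were reprogrammed to pluripotency. Line 160-2 gave an early library at p25 and late libraries at p65 and p84. Line M14939#3 gave early libraries at p16 and p17 and a late library at p40. Every culture was kept on feeder cells in a medium made for human ES and iPS cells, and RNA of the feeders was not assessed. The ESC line B4 has libraries at p16, p18 and p25, all early, and entered only where named. Each line is a single derivation, and the labels do not say whether its libraries came from separate cultures. The p-values therefore measure the spread between these libraries, which may be partly technical.

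Pluripotent stem cells divide without limit in culture and are kept by splitting the colonies again and again. Prolonged passaging is known to favour cells that survive splitting and divide fast, and it can bring chromosome gains, loss of imprinting and silencing of genes by DNA methylation. Such events arise in individual cultures, so a gene can be lost from a line at high passage and be kept in its neighbours.

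Passage overlapped with how the libraries were sequenced. All 4 late libraries were run on 1 lane, and 4 of the 5 early libraries on 2 lanes. The exception was M14939#3 p16, an early library run on 1 lane. In B15 and in 160-2, passage class and library set (1 or 2 lanes) therefore cannot be told apart. The sample numbers (S) in the column names split all libraries in the same way, low on 2 lanes and high on 1. The labels do not say what else differs between the sets. M14939#3 p40 against p16 is the only pair of a late and an early library within a set. In B4, p25 was run on 1 lane and p16 and p18 on 2, so this line carries the set difference without a late passage. Its 1-lane library is also its highest passage, so set and rising passage cannot be told apart within B4.

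Total counts were 22685551 to 41215151 in late and 20614388 to 62634176 in early libraries. Genes at 1 CPM (a count divided by the total of its library, on the usual scale) or more numbered 12762 to 13324 in late and 12593 to 13645 in early libraries, and the 100 most abundant genes held 19.1% to 19.6% and 16.8% to 23.0% of the counts. The 5 library measures examined (total, detected genes before and after thinning to equal depth, share of the top genes, TMM factor) did not separate the classes within lines, with p from 0.704 to 1 in exact two-sided permutation tests over 27 arrangements (smallest possible p 0.037, each adjusted p 1). With so few arrangements these tests could find only a near-complete separation, so a smaller difference between the classes could have been missed. B15 p28 stood apart by its TMM scaling factor of 0.7785, where the other 8 lay between 0.956 and 1.08. Genes are named by Ensembl identifier, since the files do not pair identifiers with symbols, so the pluripotency of the cells could not be checked on marker genes and no gene function can be given.

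How alike late and early libraries were, beside libraries of the same class, differed between the lines. Across 17227 tested genes, which are not independent replicates, the correlation of log2 CPM was 0.980 between the late libraries of 160-2, p65 and p84, and 0.950 between the early libraries of B15, p21 and p28. Late B15 p43 correlated with these early libraries at 0.949 and 0.961, and 22.6% and 20.4% of genes lay at least 2-fold apart, beside 26.5% between p21 and p28. Late 160-2 libraries correlated with early p25 at 0.962 and 0.958, and 18.7% of genes lay at least 2-fold apart in each pair, beside 10.7% between p65 and p84. In 160-2 the late libraries were thus closer to each other than to the early one, and in B15 the early pair was no closer than late and early. In M14939#3 the late p40 library was closer to p16, of the same library set (0.972), than to p17, of the other set (0.9635). The early pair p16 and p17, of different sets, correlated at 0.970. The shares of genes at least 2-fold apart were 13.4%, 19.4% and 15.8% in these pairs. After centring each line on its own mean, the first principal component took 34.0% of the variance. The late libraries lay at 0.189 to 0.393 on it, the early libraries run on 2 lanes at -0.445 to -0.003, and early M14939#3 p16, run on 1 lane, at 0.095.

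The main comparison asked which genes differ between late and early passage with the line as a term. In edgeR's quasi-likelihood test with an adjusted p under 0.05, 194 of 17227 genes were called (1.13%), 166 lower in late libraries (0.964%) and 28 higher (0.163%). Of the 166, 165 differed by at least 2-fold, and of the 28, 27 did. In these bulk libraries, fewer cells that express a gene and less of its RNA per cell cannot be told apart. Over all tested genes 9.25% had a difference of this size, and the median difference was -0.01 on the log2 scale. The median difference was -1.76 for the genes called lower and 1.62 for those called higher. Genes called lower had a median level of 3.09 log2 CPM and those called higher 2.29, beside 2.62 for all tested genes. In each of the 3 lines separately, every late library lay below every early one for 162 of the 166 (8.06% of all tested genes). Every late library lay above for 27 of the 28 (6.97%). The genes were called on these same libraries, so these counts describe the calls and are no separate support. The count depended on which library was left out. It was 214 without M14939#3 p40, with 112 of the 194 among them, while 1 gene was called without 160-2 p25, 3 without B15 p43, 7 without either p65 or p84 of 160-2, 19 without M14939#3 p17, 290 without B15 p28, 429 without M14939#3 p16 and 445 without B15 p21. By DESeq2 746 genes were called and without a filter on low counts 972.

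**Figure D1:**
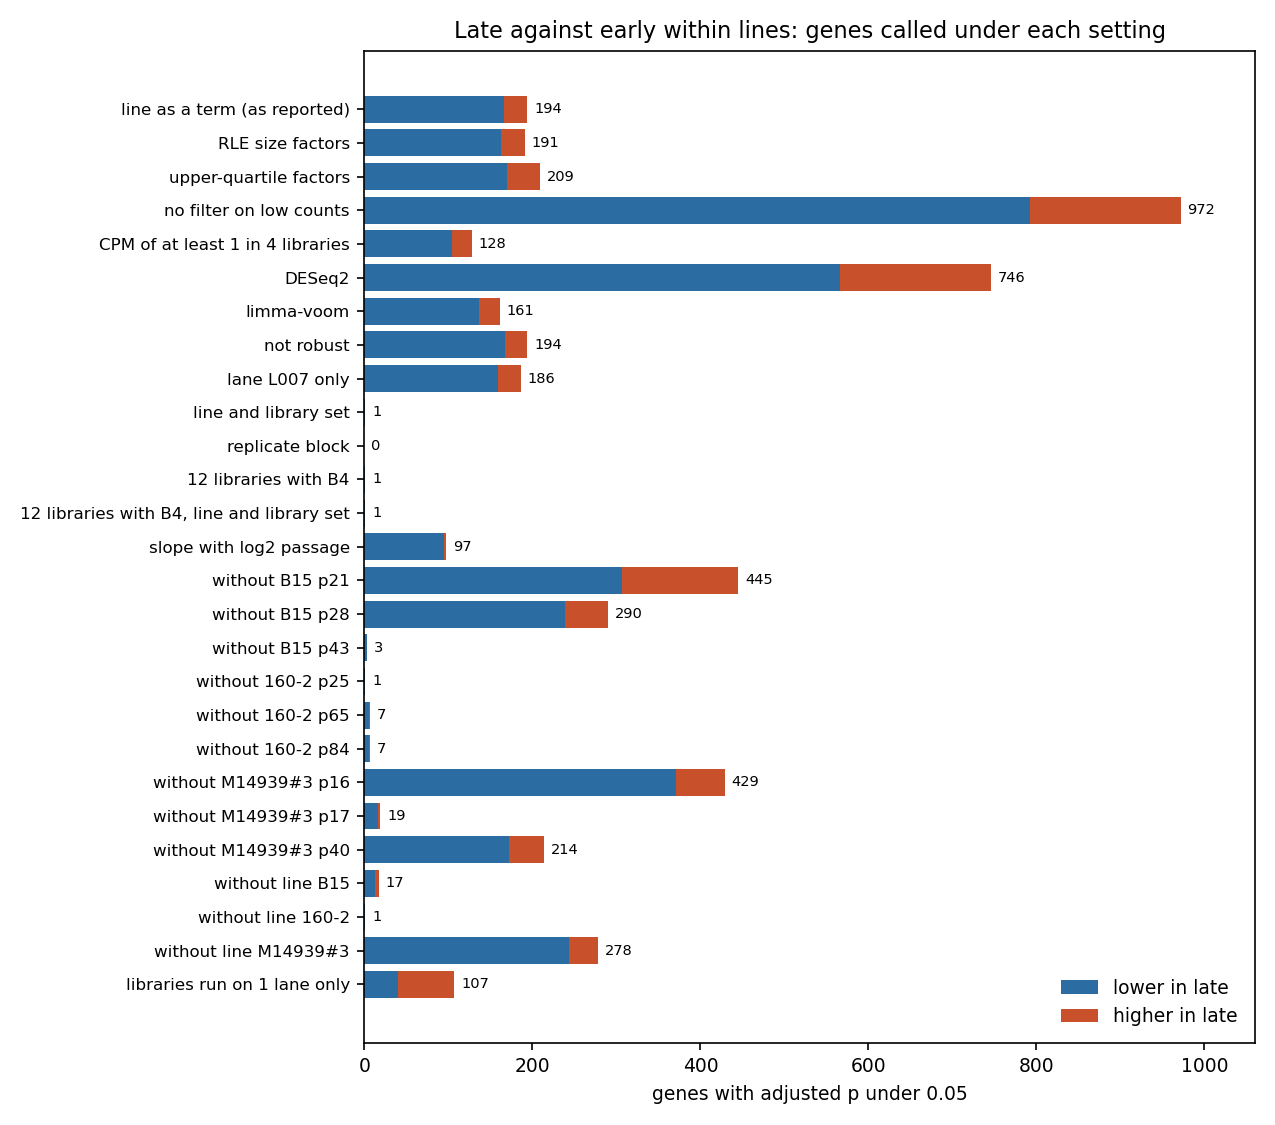
Number of genes with an adjusted p under 0.05 for late against early passage within lines (horizontal axis), as reported (194) and under each alternative setting or left-out library (vertical axis). Blue is lower and orange higher in late libraries. The count is 0 with the replicate number in the fit and 1 with the library set or line B4 in it. The replicate number rises with passage within each line.

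The first genes by the ranking rule, which takes called genes of at least 2 log2 CPM by the smallest of their line differences, showed distinct patterns over the libraries. ENSPANG00000024875 was the first gene higher in late libraries. In B15 it stood at 8.37 and 5.09 CPM at p21 and p28 and at 37.0 CPM at p43. In 160-2 it stood at 1.08 CPM at p25 and at 4.44 and 11.2 CPM at p65 and p84. In M14939#3 it stood at 4.17 and 12.97 CPM at p16 and p17 and at 42.8 CPM at p40. Each late library was above the early ones of its own line, although the classes overlapped across lines. It rose by 2.504 on the log2 scale (SE 0.36, edgeR adjusted p = 0.0149), and in M14939#3 the difference within the set of 1-lane libraries, p40 minus p16, was 3.35. In B4 it went the other way, with 24.0 and 7.63 CPM at p16 and p18 (2 lanes) and 2.34 CPM at p25 (1 lane).

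ENSPANG00000010305, the second gene higher in late libraries, was low or nearly absent in early B15. It had 1.49 CPM at p21, 0.15 CPM at p28, where 3 counts were recorded, and 7.30 CPM at p43. In 160-2 it had 3.79 CPM at p25 and 15.2 and 8.29 CPM at p65 and p84. In M14939#3 it had 6.22 and 4.65 CPM at p16 and p17 and 14.0 CPM at p40. The 4 late libraries, from 7.30 to 15.2 CPM, lay above all 5 early ones, from 0.15 to 6.22 CPM. The difference was 2.04 (SE 0.44, edgeR adjusted p = 0.0476). The early B4 p25 library, at 5.33 CPM, was also above B4 p16 and p18, at 2.40 and 0.17 CPM.

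ENSPANG00000016187, the first gene lower in late libraries, had 19.6 and 7.66 CPM in early B15 and 2.41 CPM at p43. It had 8.30 CPM in 160-2 p25 and 1.55 and 1.51 CPM in p65 and p84. In M14939#3 it had 16.3 CPM at p17 and 2.25 CPM at p40, and the early 1-lane library p16 lay between them at 4.04 CPM. All late libraries were below all early ones, and the gene fell by 2.36 on the log2 scale (SE 0.40, edgeR adjusted p = 0.0337). B4 p25, early and on 1 lane, held the lowest level of the 12 libraries, 0.67 CPM, beside 7.75 and 13.03 CPM at B4 p16 and p18. In the fit of 12 libraries with both terms, this gene was called for the library set (-2.79, SE 0.52, edgeR adjusted p = 0.026). Its late-minus-early difference there was 0.064 (SE 0.53, edgeR adjusted p = 1). The gene was chosen as low in late libraries that were all run on 1 lane and are in this fit, which favours the set call. B4 p25 is also the highest passage of B4.

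ENSPANG00000013978 was the second gene lower in late libraries. It had 27.97 and 28.5 CPM in early B15 and 5.39 CPM at p43. In 160-2 it had 19 CPM at p25 and 2.57 and 1.61 CPM at p65 and p84. In M14939#3 it had 8.82 and 15.8 CPM at p16 and p17 and 3.31 CPM at p40. Late and early libraries did not overlap, and the gene fell by 2.52 (SE 0.31, edgeR adjusted p = 0.00624). In B4 it had 28.04 and 23.6 CPM at p16 and p18 and 1.85 CPM at p25, within the range of the late libraries of the other lines. With a term for the library set none of these 4 genes was called for passage (edgeR adjusted p from 0.187 to 1 in 9 libraries), but their differences moved in different ways. That of ENSPANG00000024875 was larger with this term, 3.68 (SE 0.66) in 9 libraries and 4.25 (SE 0.62, edgeR adjusted p = 0.0866) in 12. Those of ENSPANG00000010305, ENSPANG00000016187 and ENSPANG00000013978 were smaller, at 1.45, -0.70 and -1.63 in 9 libraries.

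**Figure D2:**
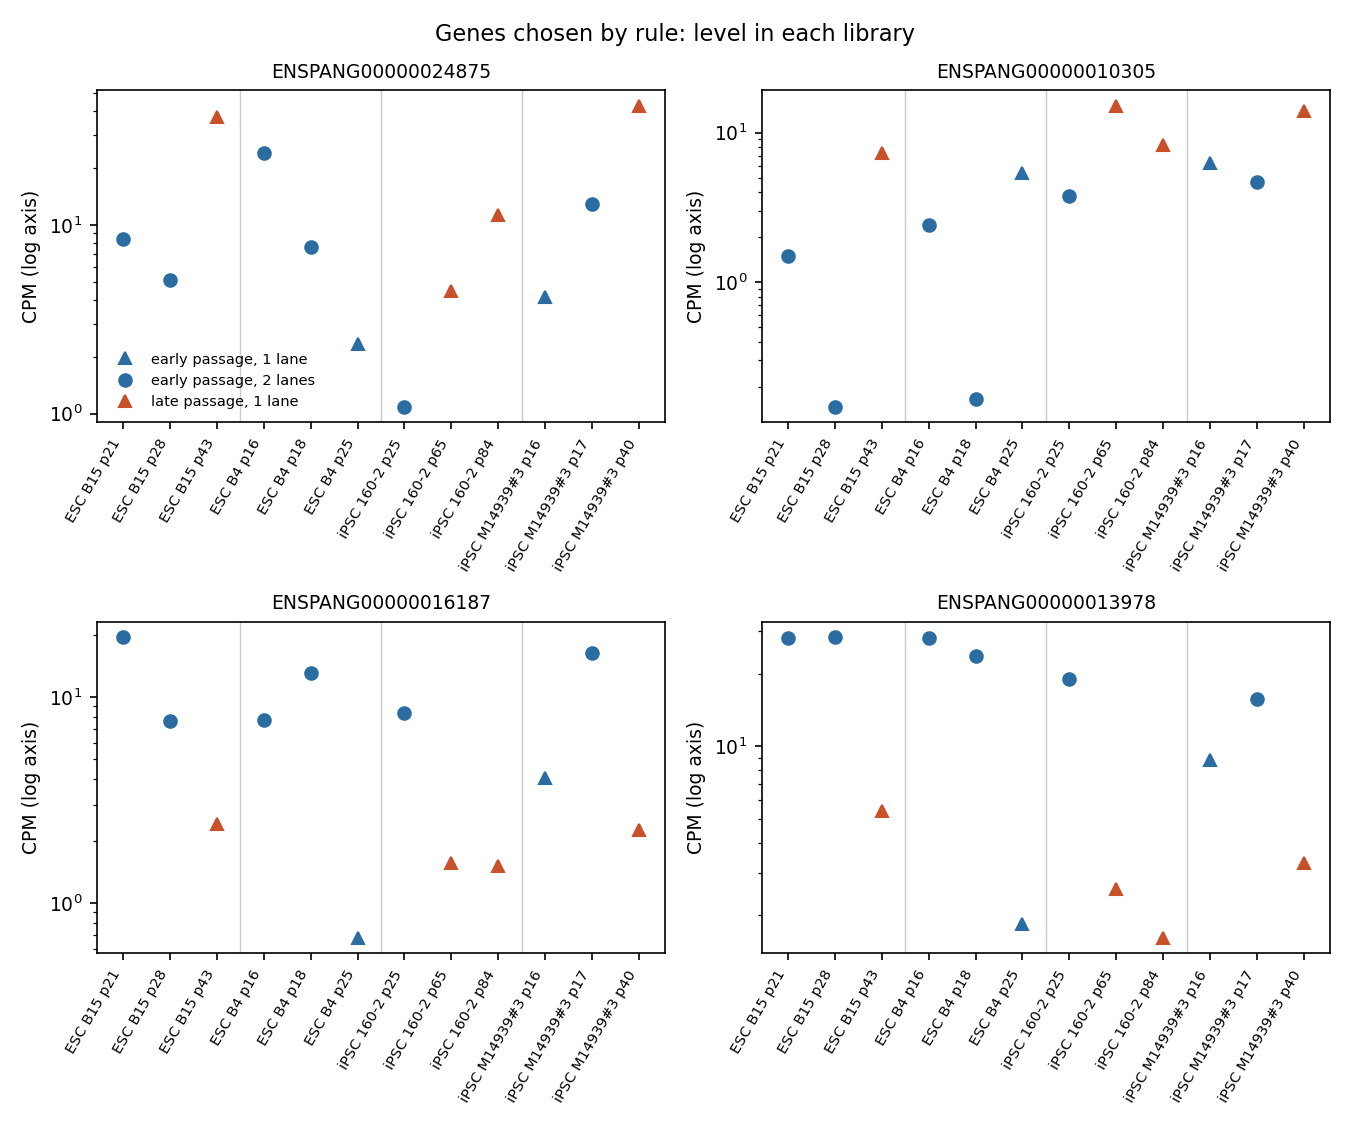
Level of the 4 genes named by the ranking rule in each of the 12 libraries (horizontal axis), in CPM on a log axis. Orange marks late and blue early passage, triangles mark libraries run on 1 lane and circles those run on 2. In the lower panels the early 1-lane library of B4 (0.67 and 1.85 CPM) lies near the late libraries.

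The genes called as a group followed the same order in a line that has no late library. B4 took no part in choosing the genes. In B4 p25, run on 1 lane, 159 of the 166 genes called lower were below both p16 and p18, run on 2 lanes (95.8%, beside 32.6% of all tested genes), with a median difference of -2.14 log2 CPM. Of the 28 genes called higher, 24 were above both in B4 p25 (85.7%, beside 38.9%), with a median difference of 1.34. For all tested genes the median B4 difference was 0.06. The summed level of the 166 genes was 2154 to 3310 CPM in the late libraries, 6813 to 9968 CPM in the early libraries of B15, 160-2 and M14939#3 run on 2 lanes, 3591 CPM in early M14939#3 p16 on 1 lane, and 2311 CPM in early B4 p25 on 1 lane beside 8066 and 8457 CPM in B4 p16 and p18. Every 1-lane library was thus below every 2-lane library in this sum. In B15, 160-2 and M14939#3 the genes were chosen as low in late and high in early libraries, which favours this order for most of these libraries. The summed level of the 28 genes was 438 to 595 CPM in the late libraries, 107 to 262 CPM in the early libraries of the same lines, M14939#3 p16 included at 262 CPM, and 486 CPM in B4 p25 beside 307 and 182 CPM in B4 p16 and p18. B4 p16 was above every early library of the other lines in this sum.

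**Figure D3:**
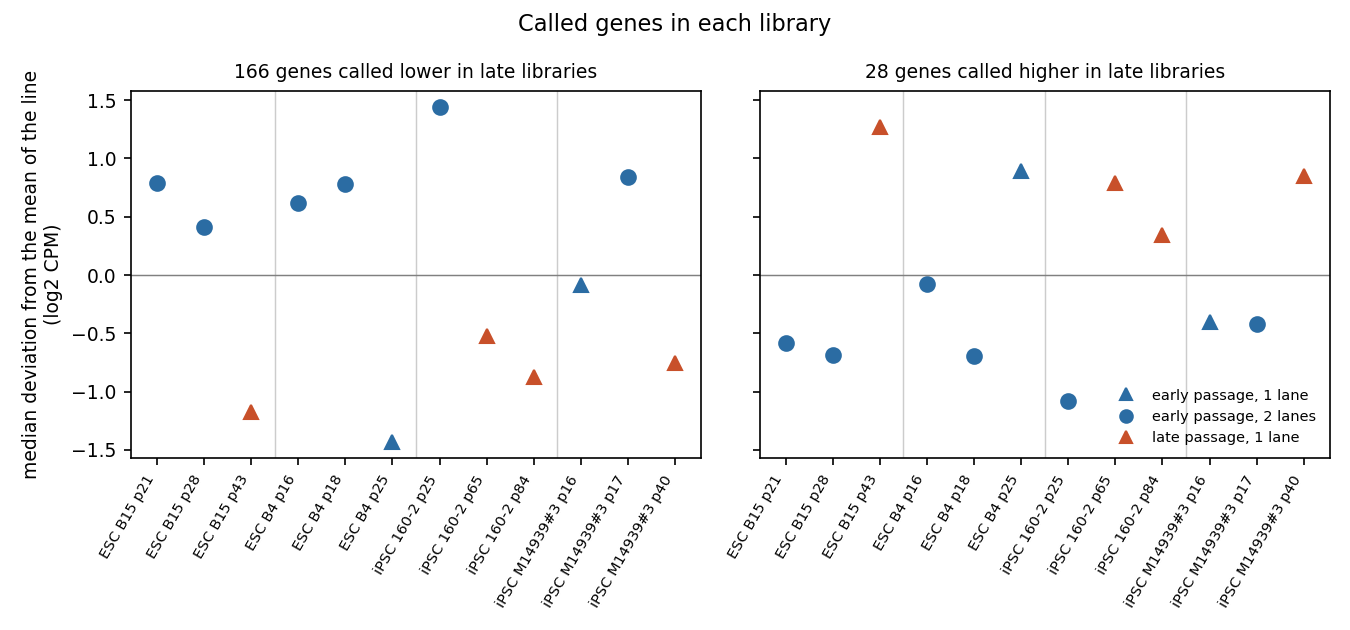
Median deviation from the mean of the line, in log2 CPM (vertical axis), of the 166 genes called lower and the 28 called higher, for each of the 12 libraries (horizontal axis). Orange marks late and blue early passage, triangles 1 lane and circles 2 lanes. For the lower genes B4 p25 has the lowest value, -1.43, and M14939#3 p16 lies at -0.09, between p17 (0.84) and p40 (-0.76).

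M14939#3 allows both steps to be read in a single line. From p17 to p16, both early and on 2 lanes and 1 lane, the 166 genes had a median difference of -0.91 log2 CPM, and 139 of them were lower in p16 (83.7%, beside 50.0% of all tested genes). From p16 to p40, both on 1 lane, their median difference was -0.66, and 163 were lower in p40 (98.2%, beside 49.9% of all tested genes). These genes were chosen on a fit that used p40 as a late library, so the counts from p16 to p40 are descriptions only. For the 28 genes called higher, p16 and p17 did not differ in a common direction, with 14 above and 14 below and a median of -0.01. From p16 to p40 all 28 were higher (beside 50.0% of all tested genes), with a median difference of 1.28.

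**Figure D4:**
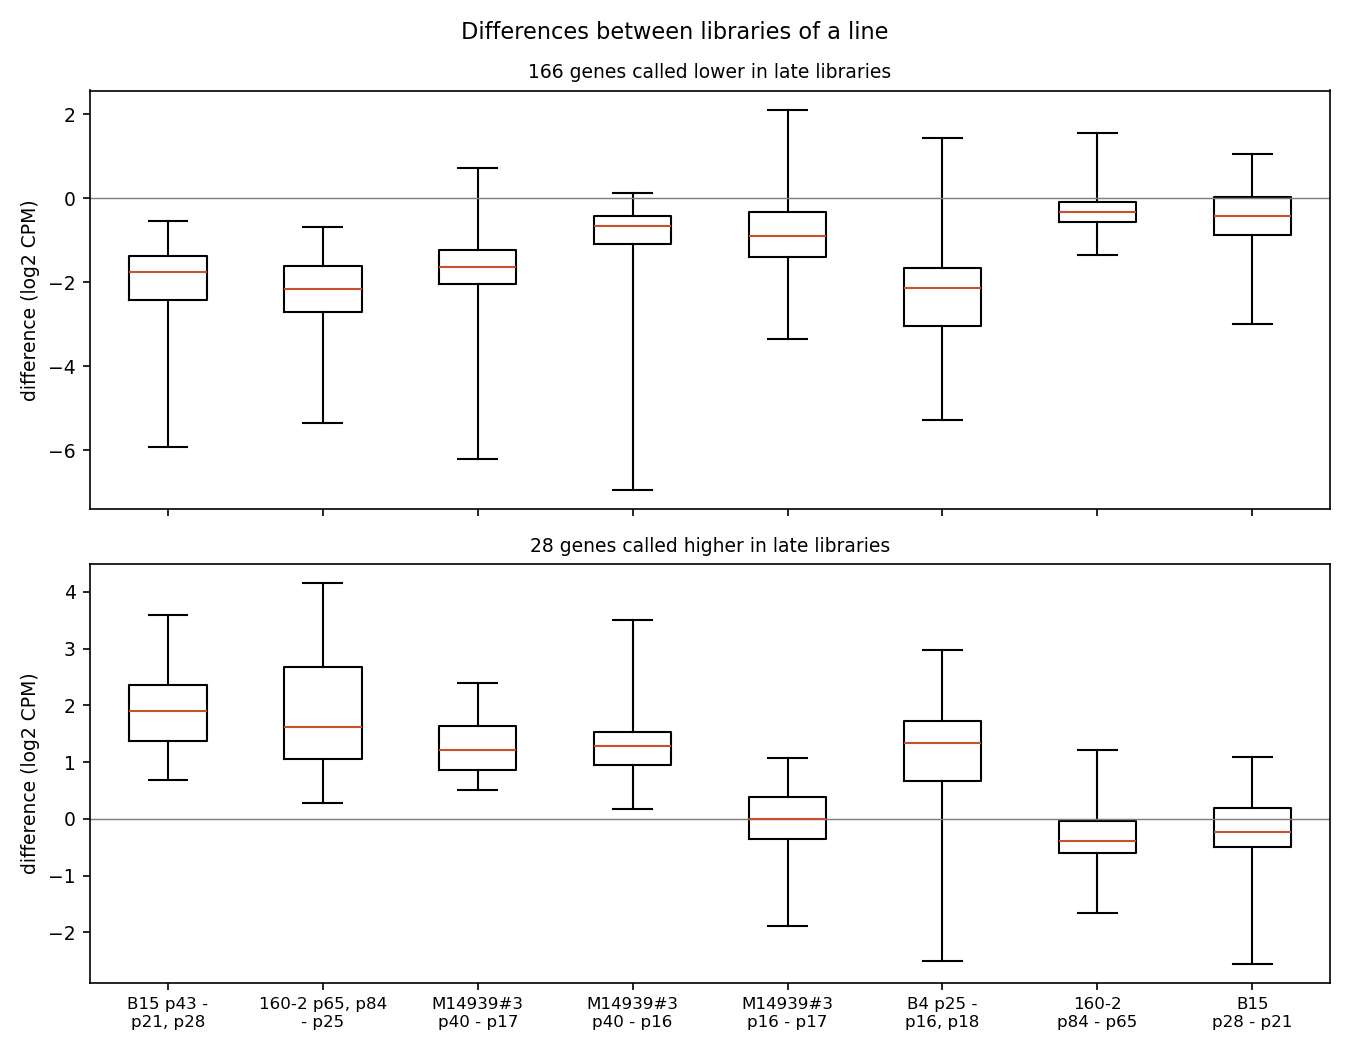
Differences in log2 CPM (vertical axis) between libraries of a line for the 166 genes called lower (top) and the 28 called higher (bottom). Boxes span the quartiles with the median in orange, and whiskers reach the extremes. The 3 comparisons at the left set late against early libraries of different sets, p40 - p16 compares classes within a set, p16 - p17 and B4 compare sets within the early class, and the last pair compares libraries of the same class and set.

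The 3 pairs of libraries of the same class and set, at different passages, varied in direction. From p65 to p84 in 160-2 the median difference was -0.33 for the 166 genes, of which 133 were lower at p84 (80.1%, beside 51.7% of all tested genes), and -0.40 for the 28, of which 22 were lower. From p21 to p28 in B15 it was -0.43 for the 166, of which 123 were lower at p28 (74.1%, beside 51.4%), and -0.23 for the 28, of which 20 were lower. From p16 to p18 in B4 it was 0.13 for the 166, of which 70 were lower at p18 (42.2%, beside 51.8%), and -0.63 for the 28, of which 24 were lower. The 166 genes were thus mostly lower at the higher passage in 160-2 and B15 and not in B4. The 28 genes, called higher in late libraries, were mostly lower at the higher passage in all 3 pairs. The passage steps of the 3 pairs are unequal, and B15 p28 is the library that stood apart by its TMM factor.

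Over all tested genes the differences were compared between lines. Across genes, late minus early in B15 and in 160-2, which share no library but share the change of set, correlated at Pearson's r 0.443 (Spearman's rho 0.351). Each correlated to a like degree with the difference between sets in B4, at r 0.438 for B15 and 0.481 for 160-2. The sets of B4 also differ in passage. With M14939#3 p40 minus p16, which compares passage within the set, the r was 0.115 for B15 and 0.106 for 160-2. With M14939#3 p16 minus p17, the set difference at early passage, it was 0.215 and 0.256. With M14939#3 p40 minus the mean of p16 and p17, it was 0.242 for B15, 0.256 for 160-2 and 0.165 for B4. The differences between single M14939#3 libraries hardly followed that of B4, with r 0.125 (rho 0.082) for p16 minus p17 and 0.09 (rho 0.104) for p40 minus p16. A difference of 2 single libraries is noisier than one that averages libraries on a side, which can lower its r. These are descriptions of 17227 genes per comparison.

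When the fit held the library set as well as the line, 1 of 17227 genes was called (0.0058%), and 492 had an unadjusted p under 0.05. The term made the comparison less precise, with a median SE of 0.56 on the log2 scale against 0.31 without it, since passage within a set rests on M14939#3. In this fit the 166 genes had a median late-minus-early difference of -0.74, below 0 for 165 of them (50.6% of all tested genes), and a median set difference of -1.08. The 28 genes had medians of 1.49, above 0 for all 28 (49.4%), and 0.15. Both groups were chosen as lower or higher in these same late libraries, so the signs are descriptions only. The set itself gave 0 calls in the 9 libraries by edgeR (884 with an unadjusted p under 0.05). With B4 added, late against early with the set term again called 1 gene (0.0058%). The set then called 119 genes (0.691%), 107 lower and 12 higher on 1 lane, of which 55 were among the 194. In this fit of 12 libraries the 166 genes had a median late-minus-early difference of -0.29 and a median set difference of -1.68, and the 28 genes had 0.99 and 0.84. Adding B4 thus made the passage difference smaller and the set difference larger in both groups. Late-minus-early was above 0 for all 28 and below 0 for 141 of the 166, which again describes genes chosen on these late libraries. Those libraries were all run on 1 lane, which favours a set call for the same genes. The overlap of 55 genes and the set differences in both fits are therefore descriptions only too. In the 8 early libraries alone, 1 lane against 2 lanes gave 0 calls by edgeR, with 1084 genes at an unadjusted p under 0.05 and 276 calls by DESeq2. Within the 1-lane libraries, where the early side is M14939#3 p16 alone and the spread comes from 160-2 p65 and p84, 107 genes were called, 67 higher and 40 lower, and 4 of them were among the 194.

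The gene called with the set term, in 9 and in 12 libraries, was ENSPANG00000034200, named after its values were seen. It was expressed in all early libraries of B15, at 10.5 CPM in p21 and 9.94 CPM in p28, and nearly absent from p43, with 3 counts or 0.12 CPM. In M14939#3 it had 13.95 CPM at p16 and 8.57 CPM at p17, and 1 count or 0.044 CPM at p40. In 160-2 it was nearly absent already at p25, with 3 counts, and had no count at p65 or p84. B4 expressed it at 10.7, 16.1 and 21.7 CPM, highest in p25 on 1 lane. Among the 1-lane libraries it was thus expressed in M14939#3 p16 and B4 p25 and nearly absent from the late ones. The cause of its loss was not tested. After scaling, early exceeded late by 87.0 times in B15 (95% counting interval 29.7 to 423) and by 247.5 times in M14939#3 (44.2 to 9795). The edgeR adjusted p was 1.34e-04 with the line as a term, 4.27e-04 with the line and the set in 9 libraries and 1.94e-05 in 12 libraries. The call with the set term was lost without M14939#3 p40 (edgeR adjusted p = 0.0777, range over 12 alternatives 2.09e-17 to 0.0777).

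Each line was then compared by itself, with the spread pooled over the lines. The count of calls was 14 in 160-2 (0.0813%), 4 in M14939#3 (0.0232%) and 1 in B15 (0.0058%), with 1368, 774 and 1117 genes at an unadjusted p under 0.05. By DESeq2 190, 16 and 168 genes were called. With 1 library on a side in every line, these calls describe single cultures. The early B15 libraries p21 and p28 enter the pooled spread, and the counts rose in each line when either was left out. The counts therefore do not rank the lines. The genes named for the lines are the first by p in each direction, chosen after their values were seen.

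In B15 the gene called was ENSPANG00000006266. It had 1446 CPM at p21 and 684 CPM at p28, the highest levels of the 12 libraries, and 7.05 CPM at p43, the lowest. It fell by 7.36 on the log2 scale (SE 0.61, edgeR adjusted p = 0.00474). The other lines held 40.2 to 488 CPM, and in B4 its level was 230 CPM on 1 lane beside 270.4 and 237 CPM on 2 lanes. The call was lost without M14939#3 p16 or p17 (edgeR adjusted p 0.0754 and 0.0752), which enter only through the spread.

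In 160-2, 3 of the 4 genes named were nearly absent on a single side of the comparison, and ENSPANG00000022880 was reduced but still expressed at p65 and p84. ENSPANG00000003387 had 25.3 CPM at p25 and 0.46 and 0.13 CPM at p65 and p84, and 14.9 to 39.8 CPM in the libraries of the other lines, late ones included. ENSPANG00000022880, an abundant transcript, had 351 CPM at p25 and 10.4 and 7.10 CPM at p65 and p84, and 490 to 1442 CPM elsewhere. Their log2 differences were -6.25 (SE 0.61) and -5.24 (SE 0.52), each with an edgeR adjusted p of 0.0131. In the other direction, ENSPANG00000005829 had 1 count at p25, or 0.026 CPM, and 3.40 and 4.87 CPM at p65 and p84. ENSPANG00000018534 had 2 counts at p25, or 0.052 CPM, and 4.44 and 5.89 CPM. The other lines held 3.01 to 9.78 CPM of the first and 4.42 to 11.03 CPM of the second, so the early library p25 stood apart for both. After scaling, late exceeded early by 164.5 times for the first (95% counting interval 29.3 to 6521) and 103 times for the second (28.4 to 857), each with an edgeR adjusted p of 0.0382. All 4 calls were lost without either late library or without M14939#3 p16 or p17 (edgeR adjusted p 0.0535 to 0.185).

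In M14939#3, 4 genes were called and all were lower at p40, where the p16 library of the same set offers a direct comparison. ENSPANG00000008547 had 45.6 CPM at p16, 76.0 CPM at p17 and 6 counts or 0.26 CPM at p40. It fell by 7.79 (SE 0.67, edgeR adjusted p = 0.00419). All 9 libraries of the other lines expressed it, from 7.22 CPM in 160-2 p25 to 108 CPM in B15 p43. ENSPANG00000019744 had 24.1 and 26.6 CPM at p16 and p17 and 2 counts or 0.088 CPM at p40, beside 14.4 to 35.3 CPM in every other line. Early exceeded late by 281 times after scaling (95% counting interval 77.6 to 2322, edgeR adjusted p = 0.00419), and this call was lost without M14939#3 p16 (edgeR adjusted p = 0.0509).

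**Figure D5:**
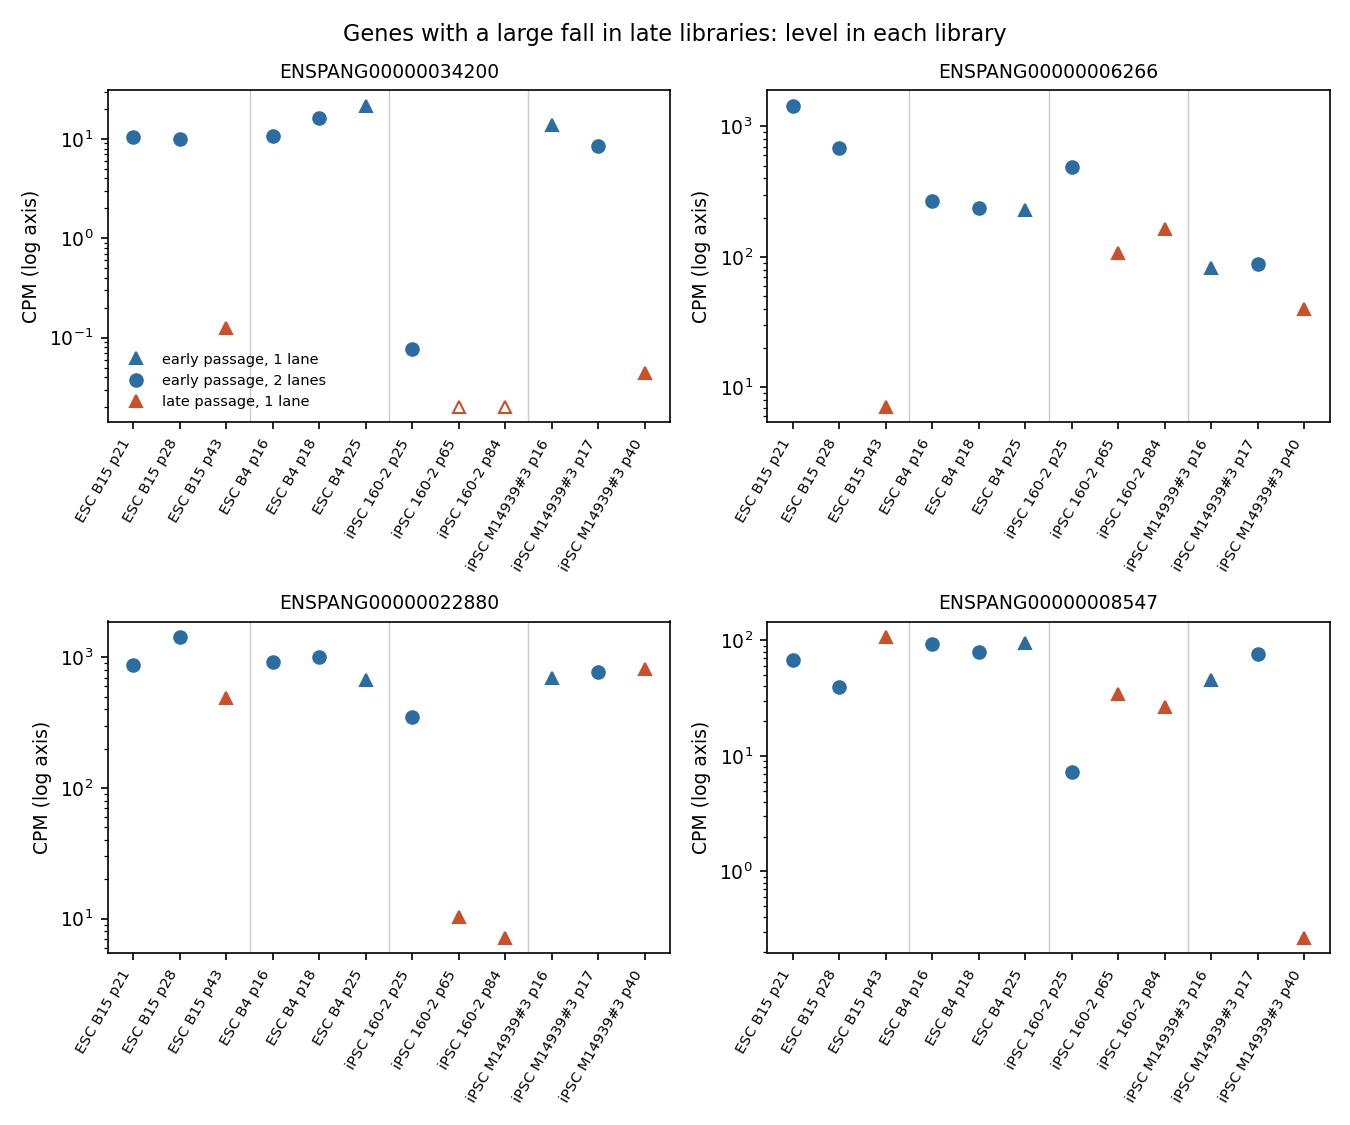
Level of 4 genes with a large fall in late libraries, in each of the 12 libraries (horizontal axis), in CPM on a log axis. Orange marks late and blue early passage, triangles 1 lane and circles 2 lanes, and open triangles at the bottom stand for 0 counts. ENSPANG00000034200 is near 0 in all 160-2 libraries and in the late libraries of B15 and M14939#3, and the other 3 genes have their lowest levels in the late libraries of a single line.

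Whether lines responded differently was tested directly. The late-minus-early difference varied between the 3 lines for 3 genes (0.0174%), with 508 genes at an unadjusted p under 0.05 and 34 calls by DESeq2. The 3 were ENSPANG00000008547 and ENSPANG00000019744, lost from M14939#3 p40, and ENSPANG00000006266, reduced in B15 p43 (edgeR adjusted p 0.0115, 0.0288 and 0.0388). Between pairs of lines the test called 4 genes for B15 against M14939#3 (0.0232%), 2 for 160-2 against M14939#3 (0.0116%) and 0 for B15 against 160-2, where 375 genes had an unadjusted p under 0.05. Of the 194 genes called over the lines, 6 were also called in 160-2 alone and 0 in B15 or M14939#3 alone. Their median difference by line was -1.86, -2.22 and -1.28 for the genes called lower in B15, 160-2 and M14939#3, and 1.94, 1.73 and 1.27 for those called higher. The difference in M14939#3, whose early libraries include p16 on 1 lane, was the smallest in both groups. None of the 194 passed the test of a difference between lines. A difference between lines adds to the spread in the fit that chose these genes, so this does not show that the lines agree.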

How the data were processed

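Libraries were made with SMART-Seq v4 and Nextera XT, per the labels' protocols, a preparation without strand information. The deposited table holds raw counts of 29475 Ensembl identifiers in 18 columns, 1 for every library and lane. The submitters' processing notes name featureCounts and edgeR with no role. Aligner, genome build and annotation: not given in the sources used here. Overlapping genes on opposite strands and near-identical copies cannot be told apart in such counts. None of the identifiers matched the reference table of 39274 genes, so lists prepared by gene symbol were not used.

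Counts were summed over lanes. The edgeR version was 4.0.16, under R 4.3.3, with TMM factors, the 17227 genes passing filterByExpr, robust quasi-likelihood fits and a Benjamini-Hochberg adjusted p under 0.05. Fold changes are the shrunken log2 values of edgeR. The SE was obtained as the size of the unshrunken log2 value over the root of its F statistic. For log2 CPM the prior count was 2. CPM was taken over the library's own total. Residual degrees of freedom were 5 with the line, 4 with line and set, and 3 with line by class. Count ratios used scaled totals and exact binomial intervals, which cover counting error only. Alternatives used DESeq2 1.42.0, limma 3.58.1, other factors and filters, and left-out libraries. The naming rule took called genes with a mean log2 CPM of at least 2 and the same sign in the 3 lines, ranked by the smallest line difference, the first 2 per direction. The code was tested on simulated counts. The libraries compared and the rules were chosen with earlier results of these data known.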

Additional observations from a re-analysis of the deposited data

Results flagged for a closer look

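The TMM factor of B15 p28, 0.7785, stood apart from the other 4 early libraries, the next at 1.041. Among 18 sets of 4 or 5 libraries examined for such a gap (5 genes and 4 library measures in each class), this was the only one, and about 1 in 20 would be marked without any effect. Without this library 290 genes were called for late against early.

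The late-minus-early difference varied between the lines for ENSPANG00000008547 (edgeR adjusted p = 0.0115), ENSPANG00000019744 (0.0288) and ENSPANG00000006266 (0.0388). The first was higher in the late libraries of B15 and 160-2 by 0.87 and 2.15 on the log2 scale, neither past the threshold, and lower in that of M14939#3 by the value given above. Their part in passage, culture or library preparation was not tested.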

How the results depend on the processing

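The 194 genes for late against early within lines became 191 with RLE factors, 209 with upper-quartile factors and 161 with limma-voom. They became 194 without the robust fit and 186 from lane L007 alone. In this last fit the counts of every library came from the same lane, and 175 of its genes were among the 194. The count moved to 972 without a filter, 128 with at least 1 CPM in 4 libraries, 746 by DESeq2, 97 for the slope with log2 passage, 17 without line B15, 1 without line 160-2 and 107 within the 1-lane libraries. It was 278 without line M14939#3. It was 1 with the set as a term, 1 with B4 added and 1 with both. In these 3 fits the gene was ENSPANG00000034200. Leaving out single libraries gave 1 to 445. The share of higher genes, 14.4%, was 24.1% by DESeq2 and 62.6% within the 1-lane libraries. ENSPANG00000016187 changed sign with B4 and the set in the fit (0.064). ENSPANG00000010305 lost its call in 19 of 26 alternatives, ENSPANG00000016187 in 12, ENSPANG00000024875 in 9, ENSPANG00000013978 in 8 and ENSPANG00000034200 in 1.

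With the replicate block, that is the replicate number within the line as a term, 0 genes were called by edgeR (939 at an unadjusted p under 0.05). The number follows the passage order within each line. The first library of every line is early and the last is late. In this fit the class therefore rests on the middle libraries, and the lack of calls says little about passage. Early libraries of the same number deviated together with r of -0.196 between B15 and M14939#3, 0.295 between B15 and B4 and 0.052 between M14939#3 and B4.

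For single lines, the counts without a filter were 224 in B15, 406 in 160-2 and 29 in M14939#3, and by DESeq2 168, 190 and 16. Left-out libraries gave 0 to 213, 0 to 217 and 1 to 10. For the difference between lines the count was 79 without a filter, 34 by DESeq2 and 1 to 34 with a library left out. The set term gave 46 genes without a filter, 20 by DESeq2, 2 from lane L007 and 0 to 11 with a library left out. Without M14939#3 p16 this fit could not be made. The set in early libraries gave 336 without a filter and 276 by DESeq2. These alternatives of the set fits, and the use of a single gene list for all fits but the filters, were chosen after seeing the data. The cause of these shifts was not tested. With 4 late libraries on 1 lane, passage within a set rests on a single pair of libraries.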

Other observations

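Genes that went from at least 5 CPM to under 0.5 CPM were few, both between late and early libraries and between libraries of the same class. These limits were chosen after seeing the data. Pairs of single libraries meet them more easily than comparisons of 3 libraries, so the counts of the 2 kinds are not directly comparable. All late libraries were under the lower limit for few of the genes at or above the upper in all early ones. These losses were 2 of 8130 genes in B15, 8 of 9498 in 160-2 and 8 of 8882 in M14939#3. The reverse held for 1, 2 and 0 genes. Of these losses, 14 genes were lost in 1 line, 2 in 2 lines and 0 in all 3. ENSPANG00000034200 is among the 2, lost in B15 and in M14939#3. Between early libraries, 15 genes were lost and 1 gained from p21 to p28 in B15, 5 lost and 3 gained from p17 to p16 in M14939#3, and 6 lost and 4 gained in B4 p25 against p16 and p18. From p16 to p18 in B4, 1 was lost and 9 were gained. From p65 to p84 in 160-2, both late and on 1 lane, 3 were lost and 0 gained. From p16 to p40 in M14939#3, both on 1 lane, 14 were lost and 1 gained. In these further comparisons 8704 to 9453 genes were at or above the upper limit on the starting side.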
